A study of Mus musculus with 72 samples.

Results

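The genes described here are 8 cyclins and 2 mitotic regulators, chosen by symbol from the 51826 genes of the count files: the D-type cyclins *Ccnd1*, *Ccnd2* and *Ccnd3*, the E-type cyclins *Ccne1* and *Ccne2*, the A-type cyclin *Ccna2*, the B-type cyclins *Ccnb1* and *Ccnb2*, and *Cdc20* and *Plk1*. All 10 were present in the files. They were measured in 72 poly(A) RNA libraries from mouse embryonic stem cells (mESCs) of the line E14TG2a, grown as naive cells in 2i + LIF medium. The cells were exposed to 4-thiouridine (4sU), a uridine analog whose alkylation makes new RNA carry T-to-C changes in the reads (SLAM-seq), and were separated by sequential detergent extraction into nuclear, cytosolic and membrane fractions beside whole-cell extract. Labeling lasted 15, 20 or 30 min in replicates 1 and 2. It lasted 20, 40, 60 or 120 min in replicates 3 and 4, and 60 or 120 min in replicates 5 and 6, with 1 library per replicate, time and fraction. The sample labels give 500 µM 4sU up to 40 min and 100 µM at 60 and 120 min, whereas the study's methods imply the higher dose also for these 2 times in replicates 3 and 4. At 60 min the conversion rate of new RNA, estimated once per library, was 7.43% ± 0.787 (SD, n = 8) in replicates 3 and 4 and 3.01% ± 0.541 (SD, n = 8) in replicates 5 and 6. Dose and pair of replicates cannot be told apart, and by the labels dose also changes with labeling time in replicates 3 and 4. For this reason no comparison of doses was made. The 8 libraries of 120 min in replicates 3 and 4 were set aside from the pooled values, which left 64 libraries, 16 per fraction. The paper left out labeling with 500 µM beyond 60 min. From 120 min on it found genes differentially expressed in whole cells against unlabeled ones.

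Cyclins are the regulatory partners of the cyclin-dependent kinases (CDKs) that drive the cell cycle. D-type cyclins bind CDK4 and CDK6 and couple growth signals to the start of the cycle, E-type cyclins bind CDK2 at the start of DNA replication, cyclin A2 acts through S phase and into mitosis, and B-type cyclins bind CDK1 to enter mitosis. Cyclin B is then destroyed by the anaphase-promoting complex (APC/C) with its activator Cdc20, and Polo-like kinase 1 (Plk1) acts in mitotic entry, the spindle and cytokinesis. In most somatic cells these RNAs rise and fall with the cycle, whereas embryonic stem cells have a short first gap phase and keep part of this machinery active through most of the cycle. The cells were not sorted by phase, so that fewer cells of a phase and less RNA per cell cannot be told apart in any value below.

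Gene reads numbered 13.2 M to 53.0 M in a library (median 21.5 M). Summed levels of the 7 markers of embryonic stem cells were 2902 to 5278 CPM (read counts scaled to the same gene total in every library) in whole cells, against 16.0 to 29.6 CPM for 10 markers of differentiated or feeder cells, of which 1 was at 0 in every library and 6 had a median under 1 CPM. Nuclear RNAs summed to 680 to 2986 CPM in the nucleus and 83.5 to 594 CPM in the cytosol, mitochondrial RNAs to 37201 to 129321 CPM in the membrane fraction and 215 to 1654 CPM in the cytosol, and RNAs translated at the endoplasmic reticulum to 5202 to 11941 CPM in the membrane fraction and 197 to 646 CPM in the cytosol. 1 set of libraries, the whole-cell libraries of replicate 6, went against the order of its labeling times. There the median share of new RNA over all genes was 39.1% in the library labelled 60 min and 18.2% in the one labelled 120 min, whereas replicate 5 had 22.3% and 40.8%. All 10 genes shared this inversion in replicate 6, and 0 of 10 did in replicate 5. In the nucleus, the 20 min libraries of replicates 3 and 4 had medians of 11.5% and 9.33%, against 4.06% and 5.49% in replicates 1 and 2, and 15.7% and 15.3% at 40 min in replicates 3 and 4.

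The start regions of the mitotic genes are given here because genes of late cell cycle phases are known to share a pair of short promoter motifs, the cell cycle genes homology region (CHR) and the CCAAT box. RefSeq sequences of GRCm38.p6, reaching from 250 bases before to 50 bases after a start, were at hand for 6 of the 10 genes. Those of *Ccnb1* (chr13:100786437-100786736, minus strand), *Ccnb2* (chr9:70421505-70421804, minus strand), *Cdc20* (chr4:118437294-118437593, minus strand) and *Plk1* (chr7:122159185-122159484, plus strand) follow in the direction of transcription, with the CHR (TTTGAA) and the CCAAT box (CCAAT) in capitals.
Ccnb1: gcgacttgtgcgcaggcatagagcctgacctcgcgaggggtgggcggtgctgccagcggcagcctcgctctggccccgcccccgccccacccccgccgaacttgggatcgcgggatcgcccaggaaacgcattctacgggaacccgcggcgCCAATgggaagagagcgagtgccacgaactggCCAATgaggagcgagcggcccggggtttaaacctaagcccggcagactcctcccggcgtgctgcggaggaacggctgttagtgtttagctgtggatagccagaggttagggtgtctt
Ccnb2: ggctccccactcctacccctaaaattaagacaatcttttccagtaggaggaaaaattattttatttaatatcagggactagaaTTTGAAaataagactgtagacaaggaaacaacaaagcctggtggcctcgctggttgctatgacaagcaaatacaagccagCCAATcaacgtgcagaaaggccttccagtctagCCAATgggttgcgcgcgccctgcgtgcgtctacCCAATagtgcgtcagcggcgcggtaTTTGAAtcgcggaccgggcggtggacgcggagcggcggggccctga
Cdc20: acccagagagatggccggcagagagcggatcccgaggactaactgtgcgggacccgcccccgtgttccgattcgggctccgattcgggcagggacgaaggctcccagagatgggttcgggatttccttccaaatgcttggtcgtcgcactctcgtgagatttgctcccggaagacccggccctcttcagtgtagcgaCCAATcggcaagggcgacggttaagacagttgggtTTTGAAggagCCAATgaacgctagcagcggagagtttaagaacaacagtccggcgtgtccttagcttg
Plk1: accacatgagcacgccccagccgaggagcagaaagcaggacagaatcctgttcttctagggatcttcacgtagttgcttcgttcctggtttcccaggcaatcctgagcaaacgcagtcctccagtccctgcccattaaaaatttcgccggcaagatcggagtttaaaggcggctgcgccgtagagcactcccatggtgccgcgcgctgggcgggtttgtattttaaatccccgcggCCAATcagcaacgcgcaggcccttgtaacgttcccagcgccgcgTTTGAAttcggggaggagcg

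Both strands were searched for both motifs, and every match lay on the strand of the gene. *Ccnb2* held 2 CHR and 3 CCAAT matches, *Cdc20* 1 and 2, *Plk1* 1 of each, and *Ccnb1* 0 and 2. The last CHR of *Ccnb2* began at base 5 after the start, that of *Plk1* at base 31, and that of *Cdc20* 18 bases before it. Of all 32851 RefSeq promoters of this length, 17.9% held a CHR, 37.4% a CCAAT box and 6.95% both. No CCAAT box overlapped a CHR. The *Ccne1* promoter held neither motif but 4 GC boxes (GGGCGG on either strand), a motif found in 35.7% of all promoters. GC boxes were also found in the other promoters, with 3 in *Ccnb1*, 1 each in *Ccnb2*, *Cdc20* and *Plk1*, and 2 in each promoter of *Ccnd3*. Of the 2 promoters of *Ccnd3*, 1 held a single CCAAT box and neither held a CHR. A match describes these letters and not a bound site.

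Levels were compared between genes only per kb of merged exon length, in whole cells, with libraries of a replicate pooled (n = 6 replicates). *Cdc20* had the highest level, with 136 ± 37.4 CPM per kb (SD), followed by *Ccne1* with 78.8 ± 11.1, *Ccnb2* with 77.8 ± 15.7, *Ccnb1* with 64.2 ± 6.30, *Ccna2* with 55.9 ± 11 and *Plk1* with 51.8 ± 17.8 CPM per kb. The D-type cyclins were lower, with 27.7 ± 16.1 CPM per kb for *Ccnd3*, 19.4 ± 2.82 for *Ccnd1* and 0.198 ± 0.0713 for *Ccnd2*, and *Ccne2* had 7.50 ± 1.43 CPM per kb. Between neighbours in this order the ranges of the 6 replicates were separate only for *Ccnd1* against *Ccne2* and for *Ccne2* against *Ccnd2*, and all other neighbours overlapped. *Ccnd3* varied most by pair of replicates, with 441 and 406 CPM in replicates 3 and 4 and 126 to 168 CPM in the other 4. Annotated pseudogenes of *Ccnb1*, *Ccnb2* and *Ccnd3* exist, so that reads shared with such near copies make these levels uncertain.

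**Figure D1:**
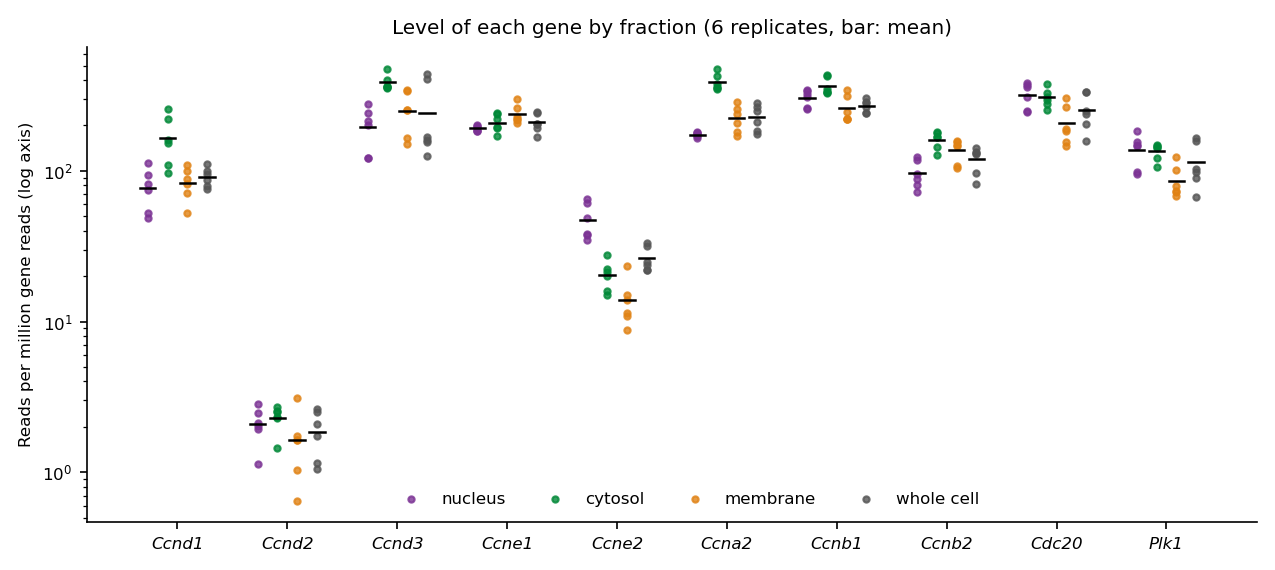
Level of the 10 genes in CPM (log axis) in the nucleus, cytosol, membrane fraction and whole cells, with 1 point per replicate (libraries pooled over labeling times) and a bar at the mean of 6 replicates. *Ccne2* stood higher in the nucleus (34.7 to 65.0 CPM) than in the cytosol (15.1 to 27.7 CPM), whereas *Ccna2* and *Ccnd3* stood lower in every replicate.

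To ask where these RNAs are found at steady state, pooled counts of the 6 replicates were compared between fractions with edgeR's quasi-likelihood test, and a gene was called if its Benjamini-Hochberg adjusted p was under 0.05 and its log2 fold change beyond 0.5 in either direction. Between nucleus and cytosol 5 of the 10 genes were called, 4 lower and 1 higher in the nucleus, beside 56.5% of 18497 genes called (18.9% lower, 37.5% higher). The replicates were not paired in this test. With the replicate number as a block there were again 4 lower and 1 higher. A CPM is relative to its own fraction, so that these values do not weigh the fractions by the amount of RNA they hold. The median log2 fold change was -0.29 over the 10 genes and 0.25 over all genes. With DESeq2's size factors the latter was 0.10, and 58.1% of the calls over all genes were higher in place of 66.4%, while the 10 genes held 5 lower and 1 higher.

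Among the D-type cyclins *Ccnd3* (chromosome 17 of GRCm38, 47505051 to 47599691) and *Ccnd1* (chromosome 7, 144929931 to 144939925) were lower in the nucleus. *Ccnd3* had 355, 364 and 477 CPM in the cytosol (lowest, median and highest of 6 replicates) and 122, 207 and 279 CPM in the nucleus. Its cytosolic replicates all lay above its nuclear ones, and its log2 fold change was -1.07 (SE 0.217, edgeR adjusted p = 2.78e-04). *Ccnd1*, the cyclin best known for its link to growth signals, had 96.5, 157 and 257 CPM in the cytosol and 48.4, 78.3 and 113 CPM in the nucleus. The 2 ranges overlapped, although the nucleus was lower in each of the 6 replicates, and the log2 fold change was -1.15 (SE 0.254, edgeR adjusted p = 6.57e-04). *Ccnd2* (chromosome 6, 127125162 to 127152193) had few reads, with 1.45 to 2.69 CPM in the cytosol and 1.14 to 2.83 CPM in the nucleus, and was not called (-0.23, SE 0.289, edgeR adjusted p = 0.502).

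Of the 2 E-type cyclins 1 was called. *Ccne2* (chromosome 4, 11191351 to 11204779) was the only gene of the 10 called higher in the nucleus, with 34.7, 43.4 and 65.0 CPM there and 15.1, 20.8 and 27.7 CPM in the cytosol. The ranges did not overlap, and the log2 fold change was 1.12 (SE 0.237, edgeR adjusted p = 4.42e-04). *Ccne1* (chromosome 7, 38097984 to 38107534), which binds the same kinase, had 183 to 202 CPM in the nucleus and 170 to 241 CPM in the cytosol. Its nucleus was higher in 2 of 6 replicates, and its log2 fold change of -0.20 (SE 0.106) was not called (edgeR adjusted p = 0.114). The difference between the 2 genes was not tested itself.

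*Ccna2* (chromosome 3, 36564865 to 36572150) was the gene of the 10 with the most negative log2 fold change. It had 352, 366 and 472 CPM in the cytosol and 165, 175 and 180 CPM in the nucleus, where it varied least. The groups did not overlap, and the log2 fold change was -1.25 (SE 0.139, edgeR adjusted p = 3.74e-07). *Ccnb2* (chromosome 9, 70407692 to 70421547) had 128, 167 and 180 CPM in the cytosol and 72.3, 92.2 and 124 CPM in the nucleus. Its groups were also separate, with a log2 fold change of -0.81 (SE 0.156, edgeR adjusted p = 1.57e-04). *Ccnb1* (chromosome 13, 100778650 to 100786570) had 327 to 430 CPM in the cytosol and 257 to 343 CPM in the nucleus, overlapping ranges, and was not called (-0.35, SE 0.155, edgeR adjusted p = 0.0595). This call depended on the scaling: with DESeq2's size factors in edgeR it was -0.52 with an adjusted p of 0.0116, and without replicate 4 it was -0.51 with an adjusted p of 0.0241. In all, 4 of the 10 genes had separate ranges in nucleus and cytosol, beside 44.9% of 13565 genes with a mean of at least 1 CPM.

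*Cdc20* (chromosome 4, 118432901 to 118437352) and *Plk1* (chromosome 7, 122159439 to 122169873) were not called between these fractions. *Cdc20* had 245 to 383 CPM in the nucleus and 255 to 376 CPM in the cytosol, with the nucleus higher in 3 of 6 replicates. Its log2 fold change was -0.03 (SE 0.173, edgeR adjusted p = 0.911), and that of *Plk1* was -0.04 (SE 0.160, edgeR adjusted p = 0.857). The sign turned without replicate 2 for both genes (0.00463 and 0.0557) and without replicate 3 for *Cdc20* (0.0288), so that no direction can be given.

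In the membrane fraction, where RNA bound to the endoplasmic reticulum is collected, 1 of the 10 genes was called against the cytosol, beside 30.2% of all genes (9.12% lower, 21.1% higher). *Ccna2* was lower there, with 170, 222 and 288 CPM against 352 CPM or more in the cytosol, and a log2 fold change of -0.53 (SE 0.137, edgeR adjusted p = 0.00429). Without replicate 3 it was -0.45 and fell below the limit of 0.5. *Ccnd1* was lower in all 6 replicates with overlapping ranges (52.6 to 109 CPM in the membrane fraction), and its log2 fold change of -0.65 (SE 0.252) missed the threshold (edgeR adjusted p = 0.0505). With the replicate number as a block it was -0.64 and called (adjusted p = 7.12e-06), which made 2 called genes of the 10. It was also called without replicate 1 (-0.64, adjusted p = 0.0447) and without replicate 3 (-0.63, adjusted p = 0.0494). *Ccne1* had a log2 fold change of 0.50 (SE 0.107, edgeR adjusted p = 8.49e-04), just under the limit of 0.5 and so not called, with 209 to 299 CPM in the membrane fraction and a higher value there in 4 of 6 replicates. It was beyond that limit and called without replicate 1, 2 or 4 (0.51, 0.55 and 0.52). The groups were separate for 2 of the 10 genes, *Ccna2* and *Ccnd3*, beside 38.4% of 13093 genes. Ranges and replicate orders are of plain CPM, whereas the log2 fold changes use edgeR's scaling (TMM), here as between nucleus and cytosol. The 2 scales can differ: *Ccnb2* was lower in CPM in the membrane fraction in 6 of 6 replicates, with a log2 fold change of 0.05.

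Levels of the 10 genes showed no called change with labeling time in whole cells. The reference was a shorter labeling time and not unlabeled cells. The 120 min libraries of replicates 3 and 4 are those set aside from the pooled values. Between 120 and 20 min in replicates 3 and 4, 0 of 10 were called, beside 0.113% of 16858 genes (0.0712% higher, 0.0415% lower), and between 120 and 60 min in replicates 5 and 6 0 of 10, beside 0%. In the latter comparison, which rests on the inverted libraries of replicate 6, edgeR called 0 genes with 123 at an unadjusted p under 0.05, and DESeq2 called 0 with 101. *Ccne2* went from 26.3 and 28.8 CPM at 20 min to 21.6 and 11.4 CPM at 120 min. The drop was larger in replicate 4, and the log2 fold change of -0.68 (SE 0.316) did not pass (edgeR adjusted p = 0.50). In the nucleus 0 of 10 were called, beside 2.91% of 17810 genes (1.56% higher, 1.35% lower), and in the cytosol 0 of 10, beside 1.04% of 16284 genes. Nuclear *Cdc20* was at 233 and 328 CPM at 20 min and 333 and 418 CPM at 120 min of replicates 3 and 4, nuclear *Ccnd3* at 177 and 253 CPM and then 253 and 318 CPM, and nuclear *Ccne2* at 61.4 and 43.5 CPM and then 40.3 and 23.1 CPM. Their log2 fold changes of 0.58, 0.57 and -0.59 had edgeR adjusted p values of 0.125, 0.0997 and 0.176.

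To follow new RNA, the share of new in total RNA was computed as the T-to-C (T2C) counts over the T counts of a gene, divided by the conversion rate of the library. No background was subtracted, and shares are not capped at 100%. In the cytosol after 120 min of labeling *Ccne2* was renewed most, with 93.4% in replicate 5 and 103% in replicate 6. *Ccnb1* followed with 40.7% and 43.4%, *Plk1* with 41.6% and 37.1%, *Ccne1* with 32.6% and 31.8%, *Ccnd1* with 30.1% and 31.5%, and *Ccna2* with 30.1% and 29.7%. *Cdc20* had 27.5% and 23.9%, *Ccnb2* 17.8% and 17.0%, and *Ccnd3* 15.7% and 14.7%. *Ccnd2* had 15.7% and 18.7%, on few T counts (418 to 5353 per library, against at least 5858 for the other genes). The median over all genes was 38.5% and 38.4%. Thus 7 of the 10 genes lay below the median of all genes in both libraries, and *Ccne2* lay at percentiles 92.8 and 95.4. *Ccne2* stood apart from all others, and the ranges of the 2 libraries overlapped between *Ccnb1* and *Plk1* and between *Ccnd2* and either *Ccnb2* or *Ccnd3*. *Ccne1*, *Ccnd1* and *Ccna2* lay together between 29.7% and 32.6%.

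Expressed as an apparent half-life (ln 2 times the labeling time over -ln of 1 minus the share), with no correction for delay or growth, the cytosolic values after 120 min were 153 ± 9.29 min for *Ccnb1*, 167 ± 17.5 min for *Plk1*, 214 ± 4.18 min for *Ccne1*, 226 ± 9.16 min for *Ccnd1*, 235 ± 2.62 min for *Ccna2* and 281 ± 32.3 min for *Cdc20* (SD, n = 2). Those of *Ccnb2* (435 ± 14.5 min), *Ccnd2* (444 ± 60.8 min) and *Ccnd3* (505 ± 26.3 min) were longer. *Ccne2* had 30.6 min in replicate 5 and no defined value in replicate 6, where its share exceeded 100%. Cytosolic RNA arrives from the nucleus, so that these values include the time spent there and do not measure cytosolic stability. The paper fitted such a formula to the labeling data of whole cells only and modeled the fractions as successive steps. It also fitted exponential decay per fraction, to levels after a block of transcription and to values derived from its model. In whole cells the values of replicate 6 rest on the library with the inverted order of times. There *Ccnb1* had 152 min in replicate 5 and 381 min in replicate 6, and *Ccne2* 37.1 min and 136 min. The nuclear and cytosolic shares of all 10 genes rose with labeling time from 60 to 120 min in both replicates, with the exception of cytosolic *Ccnd2*.

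**Figure D2:**
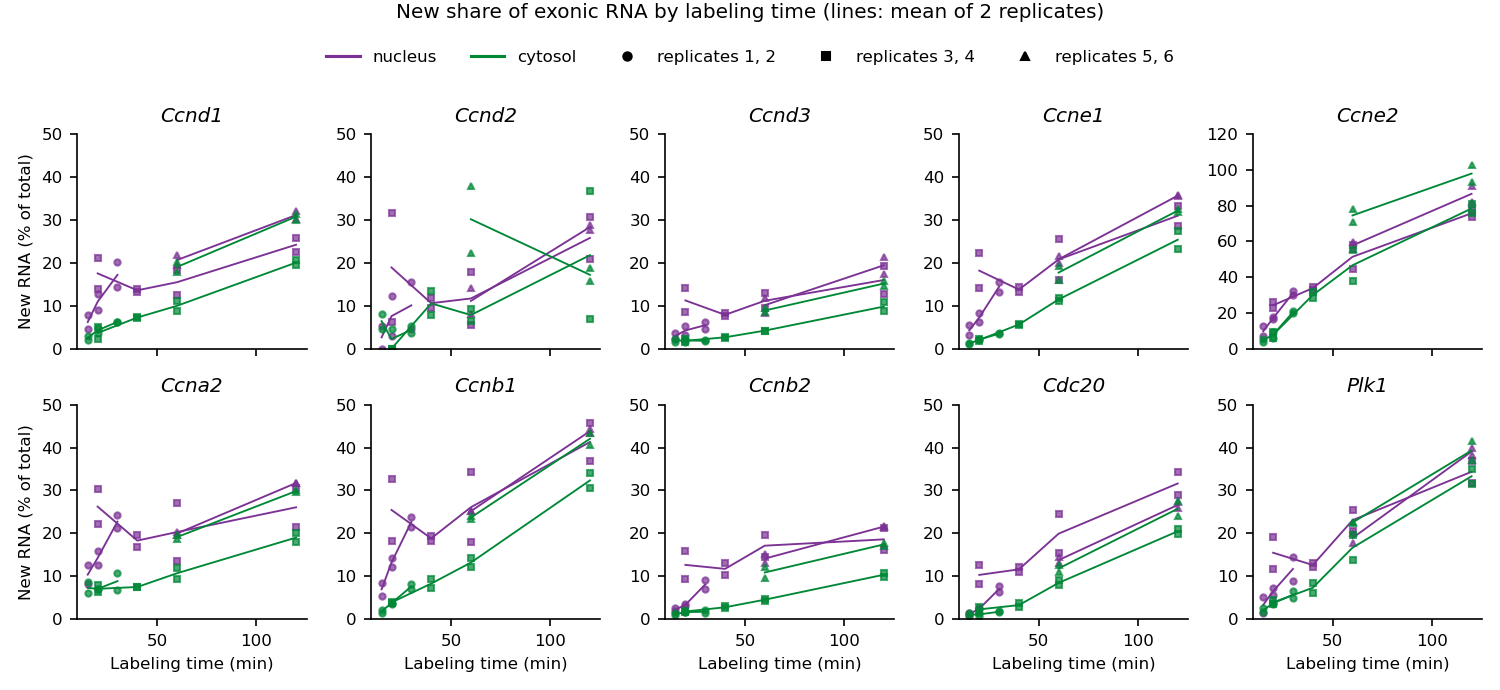
New share of exonic RNA (percent of total) against labeling time in min for each of the 10 genes, in the nucleus (purple) and cytosol (green), with 1 point per replicate, marker shapes for the pairs of replicates and lines through the mean of 2 replicates. *Ccne2* has its own axis, since its cytosolic share reached 93.4% and 103% at 120 min, and in replicate 3 the nuclear shares of 9 of 10 genes were larger at 20 than at 40 min, beside 28.4% of all genes.

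Some pairs of genes that share a class kept 1 order of their exonic shares across libraries. *Ccnd2*, with few T counts, was left out of these pairs and kept no fixed order with *Ccnd3*. In the cytosol after the longest labeling it had 15.70% against 15.71% in replicate 5 and 18.7% against 14.7% in replicate 6. A fixed order was not limited to a class, since *Ccnb1* exceeded *Cdc20* in 64 of 64 libraries. Pairs of genes drawn from all genes were not counted. *Ccnb1* had a larger share than *Ccnb2* in 64 of 64 libraries, with a median ratio of 2.45 (range 1.22 to 5.02). *Ccnd1* exceeded *Ccnd3* in 64 of 64 libraries (median ratio 2.12), *Ccne2* exceeded *Ccne1* in 64 of 64 (median ratio 3.46), and *Plk1* exceeded *Cdc20* in 64 of 64 (median ratio 1.69). *Ccna2* was larger than *Ccnb1* in 30 of 64 libraries, with a median ratio of 0.95. Without its last exon, described further on, *Ccna2* was the smaller one in 64 of 64 libraries, with a median ratio of 0.593 (range 0.231 to 0.924).

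Introns, which stand for pre-mRNA, were set beside the exons in the 6 nuclear libraries of 15 and 20 min, because from 40 min on the intron shares of most of these genes lay near or above 100%, which bounds the ratio of 2 genes. *Ccnb1* over *Ccnb2* had intron ratios of 0.976 to 1.36 (median 1.21) and exon ratios of 1.94 to 4.08 (median 3.1). *Plk1* exceeded *Cdc20* in introns as in exons in 6 of 6 libraries, with ratios of 1.03 to 1.57 (median 1.31) and 1.44 to 3.72 (median 2.01). The other two pairs had the opposite order in their introns. *Ccnd1* introns had the smaller share in 6 of 6 libraries, with ratios to *Ccnd3* of 0.347 to 0.835 (median 0.766) against 1.5 to 2.89 (median 2.05) in exons. *Ccne2* over *Ccne1* ranged from 0.734 to 0.861 (median 0.801) in introns and from 1.17 to 2.85 (median 2.1) in exons. Over all 16 nuclear libraries *Ccnd1* had the larger intron share in 8 and *Ccne2* in 2, and the *Ccnd1* ratio ran from 0.347 to 2.08. Libraries of a replicate share cells or their source, so that these counts describe the libraries and were given no test.

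**Figure D3:**
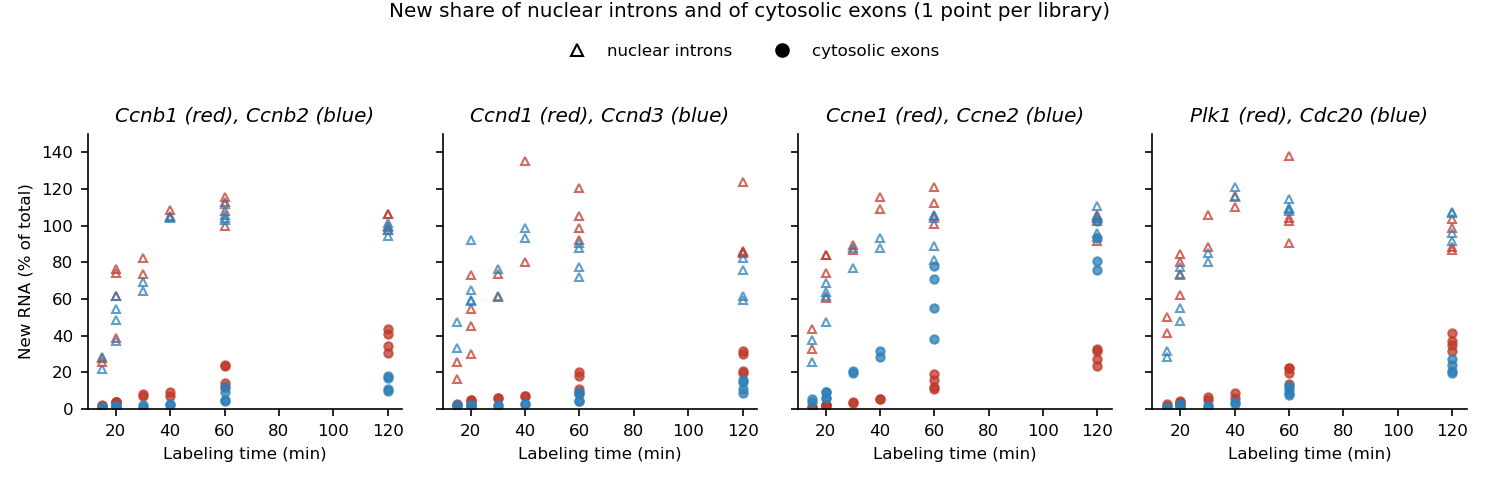
New share (percent of total) against labeling time in min for 4 pairs of genes, with open triangles for nuclear introns and filled circles for cytosolic exons, 1 point per library. At 15 and 20 min the nuclear introns of *Ccnd1* and *Ccne2* lay below those of *Ccnd3* and *Ccne1* in 6 of 6 libraries, while in exons *Ccnd1* and *Ccne2* had the larger share in 64 of 64 libraries.

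The shares of new RNA in nucleus and cytosol were compared within the times that had 4 replicates, with limma on log2(share + 0.01) and Benjamini-Hochberg adjustment over all genes. Replicates were not paired in this test. After 20 min, 9 of the 10 genes had a higher share in the nucleus, beside 47.7% of 12377 genes called (47.6% higher). Their median log2 difference was 1.47 over the 10 genes and 1.16 over all genes. The largest difference, 2.78 (SE 0.738, limma adjusted p = 0.0136), was that of *Ccnd2*, which had few T counts. Its cytosolic share was 4.52% in replicate 1 and 0 in the other replicates, so that the size of its difference rests on the added 0.01. *Ccnb1* had 12.1%, 14.3%, 32.7% and 18.2% in the nucleus of replicates 1 to 4 and 3.63% to 3.97% in the cytosol. The groups were separate, with the highest nuclear value in replicate 3, and the difference on the log2(share + 0.01) scale was 1.98 (SE 0.346, limma adjusted p = 0.00434). *Ccne1* had 6.13%, 8.41%, 22.3% and 14.1% in the nucleus and 1.83% to 2.28% in the cytosol, again separate, with a difference of 2.01 (SE 0.402, limma adjusted p = 0.00567). *Ccne2*, with 16.8% to 26.0% and 6.07% to 9.58%, differed by 1.30 (SE 0.293, limma adjusted p = 0.0079). *Cdc20* alone was not called, with a difference of 1.25 (SE 0.514, limma adjusted p = 0.0647). It had 2.28%, 2.53%, 12.5% and 8.11% in the nucleus and 0.777% to 2.87% in the cytosol, and these ranges overlapped. Within each replicate its nucleus was higher, in 4 of 4, by 0.54 to 2.35. With the replicate number as a block it was called (adjusted p = 0.0388), which made 10 of 10, and so it was at 2000 T counts (adjusted p = 0.0265) and with a robust trend over T counts (adjusted p = 0.00154). Over all alternatives its adjusted p ran from 0.00154 to 0.246.

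The differences were larger in replicates 3 and 4, whose nuclear 20 min libraries stood apart, than in replicates 1 and 2. Within replicates 1 and 2 the mean log2 difference was 0.67 for *Plk1*, 0.71 for *Ccnb2* and *Cdc20*, and 1.58 for *Ccnb1*. Within replicates 3 and 4 it was 1.72, 2.26, 1.79 and 2.38. In the nucleus of replicate 3, 9 of 10 genes had a larger share at 20 than at 40 min, beside 28.4% of 13839 genes, and in replicate 4 this held for 4 of 10, beside 16.4% of 14219 genes. Without replicate 3 as without replicate 2, 5 of the 10 genes were called, and without replicate 4 2 were. The nuclear share was nonetheless higher than the cytosolic one in 4 of 4 replicates for 9 of the 10 genes. *Ccnd2* was the exception with 3 of 4. The median share over all genes was also higher in the nucleus than in the cytosol in each of these replicates. A count over all genes of those higher in 4 of 4 was not made, so that this order is not specific to the 10 genes as far as shown.

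After 60 min 0 of the 10 genes were called, beside 26.6% of 12507 genes (25.4% higher, 1.18% lower). The median log2 difference was 0.45 over the 10 genes and 0.69 over all genes. *Ccnb2* was nearest to a call, with 19.7%, 14.6%, 15.1% and 13.1% in the nucleus of replicates 3 to 6 and 4.31%, 4.73%, 12.2% and 9.48% in the cytosol. The groups did not overlap, and the difference was 1.03 (SE 0.396, limma adjusted p = 0.0633). Its mean difference was 1.70 within replicates 3 and 4 and 0.35 within replicates 5 and 6, and the median cytosolic share over all genes at 60 min was 9.40% and 9.77% in the former and 21.6% and 19.0% in the latter. The median nuclear share was 28.7% and 20.3% in replicates 3 and 4 and 26.3% and 23.0% in replicates 5 and 6. The medians of all genes thus also lay further apart in replicates 3 and 4. All 10 genes had the larger difference in replicates 3 and 4, with 0.87 and 0.08 for *Ccnb1*, 0.80 and 0.06 for *Ccna2*, 1.12 and 0.21 for *Cdc20*, 1.21 and 0.15 for *Ccnd3*, 0.77 and 0.22 for *Ccne1*, and 0.57 and 0.11 for *Ccnd1*. How many of all genes did so was not counted. The sign differed between these pairs of replicates for *Plk1* (0.46 and -0.24), *Ccne2* (0.15 and -0.36) and *Ccnd2* (0.34 and -1.36). The conversion rates of the pairs differ as given above. The sample labels give both pairs the same dose at 60 min, whereas the study's methods imply a higher one in replicates 3 and 4. The part of conversion rate and dose in this was not tested. For *Ccne2* the 2 fractions were close, with 58.1%, 44.8%, 59.9% and 55.7% in the nucleus and 55.3%, 38.1%, 78.1% and 71.0% in the cytosol. Its nucleus was higher in 2 of 4 replicates, and its difference was -0.11 (SE 0.258, limma adjusted p = 0.765). Of membrane against cytosol at 60 min 0 of 10 genes were called, beside 3.15% of 12522 genes (0.016% higher, 3.14% lower), and the log2 differences of all but *Ccnd2* lay between -0.32 (*Ccne1*) and 0.07 (*Ccne2*). With the replicate block 833 genes were called in place of 395, and still 0 of the 10.

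In the nucleus, introns held more new RNA than exons. After 20 min all 9 genes with enough intron counts were called, beside 85.8% of 11282 genes (85.6% higher, 0.186% lower), and *Ccnd2* introns were too thin, with at most 185 T counts in a library. The difference ranged from 1.51 for *Ccne2* (SE 0.283, limma adjusted p = 1.22e-04) to 3.37 for *Cdc20* (SE 0.456, limma adjusted p = 6.52e-06), with a median of 2.62 over these genes and 1.98 over all genes. *Cdc20* introns were at 48.2%, 55.3%, 77.6% and 72.9% in replicates 1 to 4, all above its exons at 2.28% to 12.5%. At 40 min in replicates 3 and 4 the intron shares were 121% and 123% for *Ccna2*, 109% and 105% for *Ccnb1*, 115% and 109% for *Ccne1* and 93.1% and 87.8% for *Ccne2*, where the median over all genes was 70.3% and 68.1%.

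*Ccnd3*, whose gene spans 94.6 kb, departed from the others at late times. Its nuclear intron share was 93.3% and 98.7% at 40 min, 90.7% and 87.8% at 60 min and 82.6% and 76.0% at 120 min in replicates 3 and 4. In replicates 5 and 6 it was 71.9% and 77.3% at 60 min and 61.7% and 59.4% at 120 min. The share was thus lower at 120 than at 60 min in 4 of 4 replicates. The other 8 genes had 86.2% to 124% at 120 min in replicates 5 and 6, and the median over all genes was 94.7% and 92.3%. The difference of *Ccnd3* from the other genes was not tested.

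Introns took up different parts of the nuclear T counts of a gene. Over the 16 nuclear libraries the median was 31.5% for *Ccnb2*, 20.0% for *Ccnb1*, 19.6% for *Ccne2* and 17.0% for *Ccne1*, followed by 12.5% for *Cdc20*, 11.9% for *Plk1*, 8.76% for *Ccna2*, 8.33% for *Ccnd1* and 5.26% for *Ccnd3*. In the cytosol these medians were 7.91% for *Ccne2* and at most 3.96% for the others. Values vary with the library, as for *Ccnb2*, which ranged from 15.4% to 50.3% in the nucleus.

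The exonic share of *Ccna2* at short times depended on its last exon. In the cytosol at 15 min the gene had 8.56% and 5.99% in replicates 1 and 2, well above the median of all genes (1.75% and 1.29%). Without its last exon (chr3:36564865-36566282, minus strand, 1418 bases) it had 1.88% and 1.2%. Pooled over the 2 libraries, 0.386% of T counts were T2C in the distal 1113 bases of this exon (36564865 to 36565977), against 0.0473% in its proximal 305 bases and 0.0340% in the other 8 exons. The excess of the distal over the proximal stretch lay between 0.332 and 0.468 percentage points in the cytosol over 9 groups of pair and time (median 0.418), while the percentage itself rose from 0.386% to 1.16% in the distal and from 0.0473% to 0.74% in the proximal stretch between 15 min and 120 min of replicates 5 and 6. In the other fractions this excess was 0.300 to 0.952 points in the nucleus (median 0.788), 0.296 to 0.566 in the membrane fraction (median 0.342) and 0.0265 to 0.568 in whole cells (median 0.478). By 120 min in replicates 5 and 6 the share of the gene was 30.1% and 29.7% with the exon and 28.1% and 27.8% without it. Libraries without 4sU were not analysed here. The source of the excess was not tested. Without the last exon the gene kept its call between nucleus and cytosol at 20 min.

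**Figure D4:**
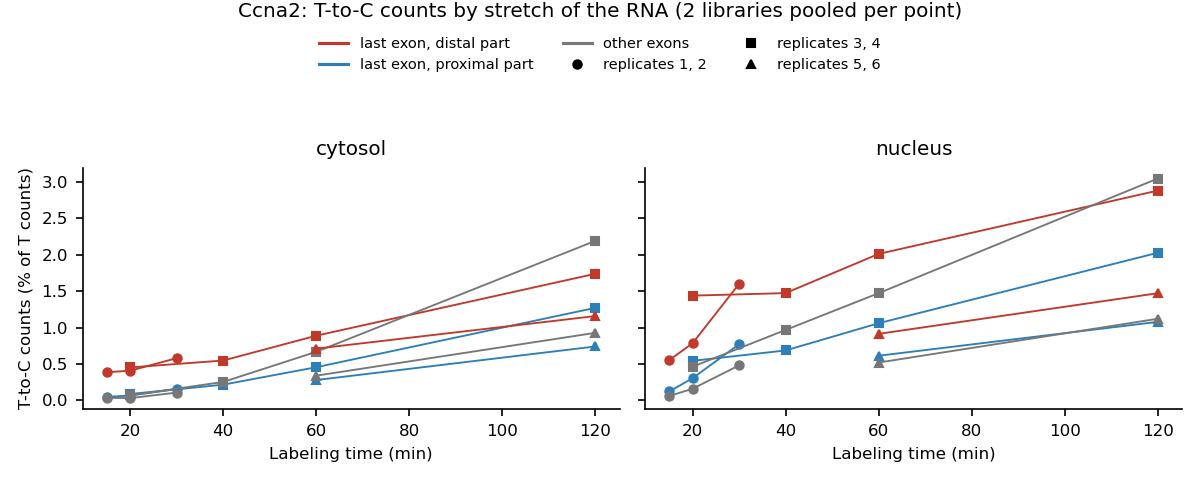
T2C counts of *Ccna2* as a percent of T counts against labeling time in min, in the distal part (red) and the proximal part (blue) of its last exon and in its other exons (grey), in cytosol and nucleus, with 2 libraries pooled per point and marker shapes for the pairs of replicates. At 15 min in the cytosol the distal part stood at 0.386%, above 0.0473% in the proximal part and 0.0340% in the other exons.

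Last exons held more T2C than the other exons in most genes of the files. At 15 min the percentage of T2C was higher in the last exon for 9 of 9 genes in the nucleus (*Ccna2* included, *Ccnd2* left out), beside 79.1% of 11457 genes, and for 8 of 9 in the cytosol, beside 62.3% of 11364 genes. Nuclear *Ccnb1* had 0.262% in its last exon against 0.0635%. At 120 min in replicates 5 and 6 this held for 4 of 9 genes in the nucleus, beside 73.2% of 11565 genes, and for 6 of 9 in the cytosol, beside 67.7% of 11074 genes. A gene was counted if both sides had at least 400 T counts.

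The wider cell cycle machinery was described by 10 lists with 95 genes, of which 94 were tested for levels. Between nucleus and cytosol 15 were called higher and 25 lower, beside 37.5% and 18.9% of all genes. The median log2 fold change was -0.05 against 0.25 over all genes. The APC/C and its inhibitors held 7 lower and 1 higher of 16, the ligases of the SCF type that destroy cyclins 4 lower of 8, and genes of cohesion and chromosome segregation 4 higher of 11. The other lists held 1 higher and 1 lower of 4 CDKs, 1 higher of 5 genes of CDK phosphorylation, 1 higher and 1 lower of 6 spindle checkpoint genes, 1 higher and 2 lower of 9 mitotic kinases and partners, 3 higher and 5 lower of 18 genes of Rb, E2F and DREAM transcription, and 3 higher and 3 lower of 10 other cyclins. *Ube2c*, the E2 enzyme of the APC/C, had 137 ± 29.7 CPM in the nucleus and 302 ± 27.2 CPM in the cytosol (SD, n = 6), a log2 fold change of -1.22 (SE 0.150, edgeR adjusted p = 1.21e-06). Its level was thus lower in the nucleus, as for *Skp1a*, an SCF subunit (-1.42, SE 0.209, adjusted p = 9.6e-06), and *Cdk4*, the partner of D-type cyclins (-0.62, SE 0.123, adjusted p = 2.53e-04). *Incenp*, of the chromosomal passenger complex, was higher in the nucleus (1.63, SE 0.197, adjusted p = 1.0e-06), as were the checkpoint kinase gene *Bub1* (1.12, SE 0.210, adjusted p = 1.35e-04) and *Ccnt2*, a transcriptional cyclin (1.29, SE 0.188, adjusted p = 8.8e-06). *Cdk1* had 244 ± 27.9 CPM and 291 ± 80.4 CPM and was not called (-0.36, SE 0.226, adjusted p = 0.175). Of the CDK inhibitors 2 of 7 were called lower and 0 higher, while *Cdkn1a* (80.8 ± 13.8 CPM in the nucleus, 90.8 ± 26.1 CPM in the cytosol) and *Cdkn1b* (43.7 ± 9.29 and 40.9 ± 6.15 CPM) were not called. In the membrane fraction 1 of 94 was higher and 14 lower than in the cytosol, beside 21.1% and 9.12% of all genes. Among the lower ones were *Mybl2*, a DREAM and MuvB partner (-0.66, SE 0.129, edgeR adjusted p = 3.23e-04), and the topoisomerase gene *Top2a* (-0.69, SE 0.219, edgeR adjusted p = 0.0171). *Skp1a* (-0.53) and *Ccng1* (-0.58) were also lower.

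New shares of these genes spread as widely as those of the 10. In the cytosol after 120 min the kinase gene *Cdk4* had 9.16% ± 0.129 (SD, n = 2 in each value here), whereas *Cdk1* had 42.7% ± 1.59. *Cdkn1a*, the p21 inhibitor, had 117% ± 1.98, and *Wee1* and *Cdc25a*, which place and remove the inhibitory phosphate of CDKs, had 98.9% ± 1.46 and 76.3% ± 1.38. APC/C subunit *Anapc5* had 6.73% ± 0.526 and *Ube2c* 32.6% ± 1.99. The checkpoint genes *Bub1b* and *Bub1* had 29.1% ± 1.98 and 34.0% ± 0.655, the spindle gene *Tpx2* 35.6% ± 2.47 and *Incenp* 46.7% ± 1.47. *Mybl2* and *Tfdp1* had 21.3% ± 0.994 and 23.0% ± 1.44, and *Top2a* and the cohesin gene *Rad21* 35.0% ± 0.113 and 36.3% ± 2.63. *Ccnf* and *Skp1a* had 46.2% ± 0.871 and 13.7% ± 0.499, *Ccng1* and *Ccnt2* 45.1% ± 3.33 and 71.0% ± 0.562. At 20 min 65 of 91 tested genes had a called higher share in the nucleus than in the cytosol and 0 a lower one, beside 47.6% of all genes higher, and at 60 min 28 of 91 and 0, beside 25.4%. Between introns and exons of the nucleus 84 of 88 were called higher in introns, beside 85.6% of all genes. With labeling time 0 of 94 genes were called in whole cells in either comparison, beside 0.113% and 0% of all genes. In the nucleus 2 were called higher, beside 1.56%, and in the cytosol 1 was higher and 1 lower, beside 0.497% and 0.547%. *Cdkn1a* was higher in both fractions at 120 against 20 min of replicates 3 and 4, where by the labels the dose differs too. Its log2 fold changes were 0.73 in the nucleus (edgeR adjusted p = 0.0220) and 1.02 in the cytosol (edgeR adjusted p = 0.00386). In whole cells its value was 0.56 and not called (edgeR adjusted p = 0.356). *Mad1l1* was also higher in the nucleus (0.58), and *Lin54* was lower in the cytosol (-0.77).

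Genes most like 1 cyclin per class were sought over the 64 libraries among 9138 genes with a mean of at least 10 CPM, by the root-mean-square difference of log2 CPM (with 0.5 added to the CPM) after centring each gene on its mean. *Ccna2* was closest to *Ash2l* (0.13), *Rad23b* and *Mapre1*, where the median gene differed by 0.63. *Ccnb1* was closest to *Ugdh* (0.15), *Mad2l1*, a spindle checkpoint gene, and *Nup37* (median gene 0.49). For *Ccne1* these were *Oxa1l* (0.17), *Eif1ad* and *Tomm40* (median gene 0.55), and for *Ccnd1* *Prrc1* (0.23), *Tuba4a* and *Lin28a* (median gene 0.75). The points share replicates, fractions and library depth, and no test was made.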

How the data were processed

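STAR 2.7.6 alignments to GRCm38 and HTSeq 0.11.1 were used by the authors, who deposited raw read counts per gene and, for the exons, genes and introns, counts of T bases and of T2C changes with known variant positions left out. The deposited conversion rate is a fraction per library, by which the authors' ratio of T2C to T counts was divided here. Replicates were independently passaged cultures. Entries of HTSeq that name no gene (30.4% to 48.8% of a library) were left out. Levels were tested in R 4.3.3 with edgeR 4.0.16 (filterByExpr, TMM, quasi-likelihood), for fractions on sums per replicate of the 64 libraries and for times on all 18 libraries of a fraction. Shares were tested with limma 3.58.1 (trend) on log2(share + 0.01), which understates differences of low shares, if each library compared had 400 T counts for the gene. Pathway genes named are the 2 with the highest whole-cell CPM of each list. The members and lists were chosen with earlier results of these data known. Per the methods, the fractions of a replicate and time came from 1 cell pellet, so that replicate numbers pair the fractions. The main tests of levels and shares left this pairing out, and only the replicate block, an alternative, used it. Deviations with the same number correlated at least at 0.19 to 0.56 (lowest per number) in levels, where 16 of 18 sums correlated best with their own number, and at -0.00785 to 0.127 in shares, where 6 of 8 libraries did so at 20 and at 60 min between nucleus and cytosol and 8 of 8 between membrane and cytosol and between introns and exons. Times were separate platings, for which a number was not shown to pair. Alternatives were DESeq2 1.42.0 and its size factors, other filters and pseudocounts, the replicate block and leaving out each replicate. Tested on simulated data, edgeR recovered 97.0% of genes changed by 1 (log2) between nucleus and cytosol and 41.7% between whole-cell times. For shares at 20 min limma recovered 37%, and 18.7% of its calls were false, against 3.60% with a robust trend over T counts. In the simulated shares 100 of 12377 genes were changed by 1 and 100 by 2, all with cytosolic shares above a minimum. The simulations used a set spread between libraries and no difference between pairs of replicates, so that these rates need not hold for the real data. The robust trend, and *Ccna2* without its last exon, were chosen after seeing the data. Depth covers counting error only, since reads carried no molecular identifiers. Libraries without 4sU or labeled for longer than 120 min were not analysed here.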

Additional observations from a re-analysis of the deposited data

Results flagged for a closer look

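Of 99 groups of 4 or 6 values of the 10 genes that were tested with Dixon's criterion, 2 held a value far from the others, and chance gives about 1 in 20. Both concern *Ccnd2*, the gene of the 10 with the fewest reads. Its pooled cytosolic level was 1.45 CPM in replicate 2, whereas the next lowest replicate had 2.28 CPM and the highest 2.69 CPM. Its cytosolic share of new RNA at 20 min was 4.52% in replicate 1 and 0 in the other 3 replicates.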

How the results depend on the processing

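Of the alternative values, 133 counts of calls stayed within 1.5 times the main count, and 865 values of single genes kept their direction and their side of the threshold. The cause of the changes below was not tested. Of the 10 genes called between membrane and cytosol (1), there were 2 with DESeq2's size factors, with DESeq2, with the replicate block or with the 120 min libraries of replicates 3 and 4 added, 3 with every library as a sample, and 1 to 3 when a replicate was left out. Between nucleus and cytosol, leaving out replicate 4 gave 5153 higher and 4797 lower genes in place of 6939 and 3505, with a median of all genes of -0.03. Nuclear levels at 120 against 20 min had 1 called gene of the 10 without a filter and 3 with the replicate block (*Ccnd3* 0.57, *Cdc20* 0.58, *Ccne2* -0.60), whose numbers were not shown to pair these libraries. At 20 min the called shares were 2 to 9 of the 10 when a replicate was left out: 5, 5 and 2 without replicates 2, 3 and 4. With the replicate block *Cdc20* was called too (adjusted p = 0.0388). At 60 min 1 gene, *Ccnb2*, was called at 2000 T counts (adjusted p = 0.0304) and with the robust trend (adjusted p = 0.0245). The block changed no other call of the 10 genes. The median apparent half-life from cytosolic shares, 235 min, became 225 min with a delay of 5 min.

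Over all genes, 120 against 20 min in whole cells gave 118 calls with DESeq2, 227 without a filter, 31 with the replicate block and 0 without either replicate, in place of 19. Against 60 min, 49 were called without a filter in place of 0. Nuclear calls (518) were 975 with DESeq2, 1242 without a filter, 1803 with the block and 290 to 565 when a replicate was left out. Cytosolic calls (170) were 296, 436, 1044 and 27 (without replicate 4) to 862 (without replicate 3). Called shares at 20 min (5910) were 1585 to 6250 when a replicate was left out, with 2927, 2454 and 1585 without replicates 2, 3 and 4. Those at 60 min (3330) were 1908 at 100 T counts and 35 to 3253 when a replicate was left out, with 309 and 35 without replicates 3 and 4. Of membrane against cytosol (395) there were 833 with the block, and 0 without replicate 5 or 6, 108 without replicate 4 and 250 without replicate 3.

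Signs turned only in values that were not called. Between membrane and cytosol *Ccnb2* was -0.00480 with DESeq2's size factors and -0.00478 with DESeq2. Without a filter the whole-cell changes of *Ccnd1* (120 against 20 min) and *Ccne2* (120 against 60 min) were -0.00277 and 0.00478 and the nuclear one of *Ccna2* -0.0327, and with the block that of *Ccne2* was 0.0207. Cytosolic *Ccnb2* was 0.0217 with DESeq2's size factors and 0.0215 with DESeq2. Leaving out a replicate in turn gave these ranges. For nucleus against cytosol they were -0.245 to 0.0288 for *Cdc20* and -0.338 to 0.0557 for *Plk1*. For whole cells at 120 against 20 min they were -0.0476 to 0.0816 for *Ccnd1*, -0.47 to 0.24 for *Ccnd2*, -0.0615 to 0.372 for *Ccnd3*, -0.12 to 0.32 for *Ccnb2*, -0.0306 to 0.352 for *Cdc20* and -0.0952 to 0.264 for *Plk1*. Against 60 min they were -0.35 to 0.30 for *Ccnd2*, -0.28 to 0.33 for *Ccne2*, -0.0340 to 0.215 for *Ccna2*, -0.0624 to 0.244 for *Ccnb1*, -0.201 to 0.0264 for *Ccnb2* and -0.11 to 0.33 for *Plk1*. In the nucleus they were -0.124 to 0.0766 for *Ccna2* and -0.0993 to 0.120 for *Ccnb1*, and in the cytosol -2.40e-04 to 0.60 for *Ccnd2*, -0.17 to 5.15e-07 for *Ccne1*, -0.0434 to 0.0435 for *Ccnb2* and -0.0467 to 0.390 for *Plk1*. Of shares at 60 min, *Plk1* ranged from -0.0412 to 0.255 between nucleus and cytosol, and between membrane and cytosol *Ccnd1* from -0.0978 to 0.0477, *Ccnd3* from -0.13 to 0.14, *Ccne2* from -0.0475 to 0.147 and *Ccnb2* from -0.152 to 0.0498. With 2 replicates per time, leaving out 1 leaves a lone library that is assumed to vary like the others.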
